A study of Mus musculus with 12 samples.

Results

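Ribosome footprints on 10 genes for secreted proteins of the liver and yolk sac were followed in the embryonic mouse CNS. The genes were Trf (ENSMUSG00000032554), Apob (ENSMUSG00000020609), Apoa1 (ENSMUSG00000032083), Apoa2 (ENSMUSG00000005681), Apoh (ENSMUSG00000000049), Alb (ENSMUSG00000029368), Afp (ENSMUSG00000054932), Ttr (ENSMUSG00000061808), Ahsg (ENSMUSG00000022868) and Rbp4 (ENSMUSG00000024990), and all 10 were present among the 10481 genes of the deposited table. They were picked by gene identifier, by someone who already knew footprint results of these same libraries, Trf in brain among them, and the comparison that led to each choice is not recorded. Their levels and differences are therefore given as a description: counts past a threshold stand beside the share over all genes, and nothing is read from them. Brain and spinal cord were taken at embryonic day 14.5 from control embryos (Smn+/-; SMN2tg/0) and SMA embryos (Smn-/-; SMN2tg/0) of the Taiwanese mouse model, and each of the 4 groups had 3 libraries. The human SMN2 transgene was therefore present in every embryo, all controls lacked 1 Smn allele, and embryo sex was not considered. The labels say only control or SMA, the column headers call the controls WT, and the alleles named here are those of the study's methods. They were not checked in the data, since the row of the deleted mouse gene was not analysed here. A footprint count rises with the amount of an mRNA and with the ribosomes on it, and no matched RNA libraries were analysed here. In whole tissue, fewer cells of a type and less RNA per cell cannot be told apart.

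In the embryo these proteins are made mainly by the hepatocytes of the liver and by the visceral endoderm of the yolk sac, which release them into blood and the fluids around the embryo. Albumin (Alb), alpha-fetoprotein (Afp) and alpha-2-HS-glycoprotein (Ahsg, fetuin A) are carrier proteins of fetal plasma. Apob, Apoa1 and Apoa2 are apolipoproteins of lipoprotein particles, Apoh binds phospholipids, Trf carries iron, and Ttr and Rbp4 carry thyroid hormone and retinol. Some of them are also made within the CNS: Ttr is a classical product of the choroid plexus epithelium, and Trf is made by choroid plexus and oligodendrocyte lineage cells.

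The genes lie on several chromosomes, but Alb and Afp are neighbours on chromosome 5, 14111 bases apart, at chr5:90460870-90476602 and chr5:90490714-90508907 of GRCm38.p6. Outside control brain, Alb, Afp, Apoa1 and Ahsg were highest in the same library of each group. So were the other genes, except Rbp4 in SMA brain. The upstream windows of Alb, Afp, Apoa1 and Ahsg are shown as examples. Each is the 250 bases before the annotated start on the + strand, from RefSeq (GRCm38.p6), at chr5:90460620-90460869 for Alb, chr5:90490464-90490713 for Afp, chr9:46228380-46228629 for Apoa1 and chr16:22891765-22892014 for Ahsg. Capitals mark matches, on either strand, to short core motifs of factors known from liver promoters and to the TATA box.
Alb: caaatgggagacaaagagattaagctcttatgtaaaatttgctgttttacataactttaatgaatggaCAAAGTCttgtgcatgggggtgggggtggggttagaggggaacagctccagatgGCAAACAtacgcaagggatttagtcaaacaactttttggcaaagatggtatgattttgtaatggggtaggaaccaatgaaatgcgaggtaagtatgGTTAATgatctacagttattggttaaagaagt
Afp: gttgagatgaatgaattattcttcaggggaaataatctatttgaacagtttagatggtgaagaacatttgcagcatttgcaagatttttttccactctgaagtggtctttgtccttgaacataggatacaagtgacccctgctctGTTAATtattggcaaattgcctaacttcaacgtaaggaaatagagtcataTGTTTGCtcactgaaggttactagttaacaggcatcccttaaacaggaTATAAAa
Apoa1: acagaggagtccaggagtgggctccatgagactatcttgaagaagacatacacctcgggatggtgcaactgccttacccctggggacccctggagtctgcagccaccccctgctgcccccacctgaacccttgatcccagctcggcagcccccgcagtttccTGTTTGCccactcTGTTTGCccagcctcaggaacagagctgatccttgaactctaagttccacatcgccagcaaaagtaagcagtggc
Ahsg: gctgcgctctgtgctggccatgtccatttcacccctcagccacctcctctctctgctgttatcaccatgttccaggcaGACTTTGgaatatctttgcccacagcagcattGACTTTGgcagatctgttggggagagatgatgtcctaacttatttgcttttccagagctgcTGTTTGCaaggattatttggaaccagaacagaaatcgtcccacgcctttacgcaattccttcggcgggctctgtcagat
The motifs searched were GTTAAT (HNF1 half-site), TGTTTNC (FOXA core), CAAAGTC (HNF4 half-site) and TATAAA (the TATA box), and no capital run combines overlapping motifs. The FOXA core was present in all 8 genes that had a RefSeq window and could be searched, against 19.9% of 27025 genes with such windows. The HNF1 half-site was found in Alb and Afp, against 7.49% of genes. The HNF4 half-site was found in Alb and Ahsg, against 4.33% of genes. The letters TATAAA were found, at any position of the window, in Apob, Apoa2, Afp and Rbp4, against 14.3%. They lay 60 to 55 bases before the start in Apob, 212 to 207 in Apoa2, 7 to 2 in Afp and 28 to 23 in Rbp4. These are matches of letters within 250 bases, not measured binding.

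Library totals ranged from 3683842 to 12793955 footprint counts, and 3 libraries stood apart from the others of their group in these genes. SMA spinal cord library 1 held 31877 counts of the 10 genes, 0.397% of its total (Wilson 95% interval 0.393% to 0.401%). Control spinal cord library 3 held 17789 counts, or 0.172% (0.170% to 0.175%), and SMA brain library 1 held 1225 counts, or 0.0328% (0.0311% to 0.0347%). The share in the other 9 libraries ranged from 0.00247% in control brain library 3 to 0.0164% in control spinal cord library 1. These intervals cover counting error only. Because the high libraries belonged to both genotypes and both tissues, group differences were also computed without them. Levels are CPM scaled with TMM factors unless stated otherwise, so that library size is taken out. A count of 3, taken as the floor, corresponded to 0.228 to 0.837 CPM depending on the library.

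All 10 genes were highest in library 3 among the control spinal cord libraries, and all 10 were highest in library 1 among the SMA spinal cord libraries. Of the 3 SMA brain libraries, library 1 was highest for 9 genes, and library 3 for Rbp4. Over the 9781 genes that averaged 20 counts or more, the same libraries were highest for 30.6% (control spinal cord), 35.0% (SMA spinal cord) and 33.3% (SMA brain) of genes. The control brain libraries had no such order, with 2, 4 and 3 of the 10 genes highest in libraries 1, 2 and 3 and Apoa2 at 0 in each.

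**Figure D1:**
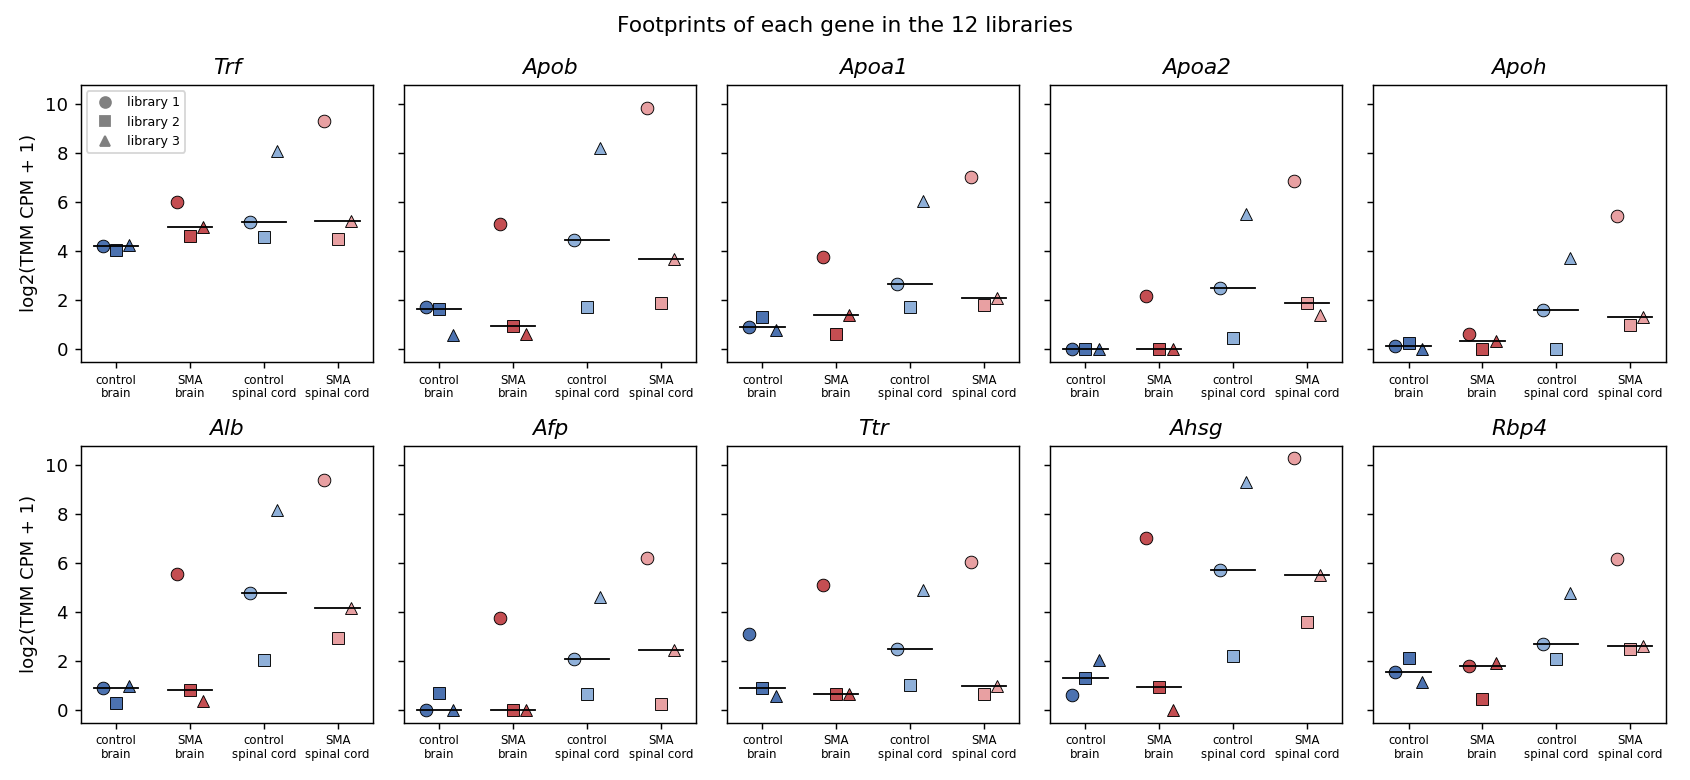
Footprint level of each of the 10 genes in all 12 libraries, as log2(TMM CPM + 1) on the vertical axis, by group on the horizontal axis. Symbols give the library number and the line the median of 3 libraries. SMA spinal cord library 1 and control spinal cord library 3 lie above the other libraries of their group in every panel, and SMA brain library 1 does so in all panels except Rbp4.

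Among the plasma carrier proteins, Ahsg reached the highest level of all. In spinal cord its levels were 50.9, 3.56 and 633 CPM in the controls and 1232, 11.1 and 45.0 CPM in SMA. In brain they were 0.547, 1.47 and 3.17 CPM in the controls and 127, 0.928 and 0 CPM in SMA. Within each tissue the genotypes overlapped, and a single SMA brain library carried 464 of the 469 Ahsg counts of its group. Alb had 26.4, 3.10 and 283 CPM in control spinal cord and 660, 6.60 and 17.0 CPM in SMA spinal cord. Alb in brain stayed at or below 0.976 CPM in the 3 controls and was 45.7, 0.742 and 0.279 CPM in SMA. Alb therefore followed the same libraries as Ahsg, with 1 SMA brain library far above the remaining 5 brain libraries. Afp, the fetal relative of albumin, was lower, with 3.26, 0.563 and 23.5 CPM in control spinal cord and 72.5, 0.194 and 4.42 CPM in SMA spinal cord. In brain, Afp counts were 0, 3 and 0 in the controls and 45, 0 and 0 in SMA. Over the pooled libraries this was a ratio of 21.4 with an exact 95% interval of 6.86 to 108, which covers counting error only and rests on SMA brain library 1.

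The apolipoproteins were highest in the same spinal cord and SMA brain libraries, while the order of the other libraries varied from gene to gene. Apob, the scaffold of very-low-density and low-density lipoprotein, had 21.3, 2.34 and 294 CPM in control spinal cord and 911, 2.72 and 11.8 CPM in SMA spinal cord. In brain, Apob levels were 2.30, 2.10 and 0.488 CPM in the controls and 33.6, 0.928 and 0.558 CPM in SMA. Outside library 1, the SMA brain levels of Apob were thus below 2 of the 3 controls. Apoa1, the main protein of high-density lipoprotein, was 5.39, 2.34 and 65.6 CPM in control spinal cord and 129, 2.52 and 3.27 CPM in SMA spinal cord, and in brain 0.875, 1.47 and 0.732 CPM in the controls and 12.6, 0.557 and 1.67 CPM in SMA. Apoa2, its partner on the same particles, had no count in any of the 3 control brain libraries and 13, 0 and 0 counts in SMA brain. It was at least 6.17-fold higher in SMA brain, against a floor of 3 counts over the control group, with all 13 counts in 1 library. In spinal cord, Apoa2 was 4.63, 0.375 and 45.3 CPM in the controls and 116, 2.72 and 1.64 CPM in SMA. Apoh had 2.05, 0 and 12.3 CPM in control spinal cord and 42.3, 0.971 and 1.47 CPM in SMA spinal cord. Apoh was near the limit of detection in brain, with 2 counts in the control group and 3 in the SMA group, and no fold is given for it there.

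The remaining genes carry iron, thyroid hormone and retinol. Trf was the only 1 of the 10 with over 15 CPM in every library. It had 17.4, 15.3 and 18.3 CPM in control brain and 63.97, 23.4 and 31.0 CPM in SMA brain, so that all 3 SMA brain libraries lay above all 3 controls. In spinal cord, Trf was 35.4, 22.8 and 274 CPM in the controls and 636, 21.4 and 36.8 CPM in SMA, with full overlap. Ttr was high in control brain library 1 too: the control brain levels were 7.55, 0.841 and 0.488 CPM and those of SMA brain 33.4, 0.557 and 0.558 CPM. Ttr in spinal cord was 4.55, 1.03 and 28.8 CPM in the controls and 64.3, 0.583 and 0.982 CPM in SMA. Rbp4 was the gene not highest in SMA brain library 1. Its brain levels were 1.97, 3.36 and 1.22 CPM in the controls and 2.46, 0.371 and 2.79 CPM in SMA. In spinal cord, Rbp4 was 5.46, 3.19 and 26.5 CPM in the controls and 71.2, 4.66 and 5.07 CPM in SMA.

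Within the spinal cord groups a single library carried most of the signal. The highest control library exceeded the next by 4.86- to 13.8-fold over the 10 genes, and held 75.4% to 92.6% of the group's summed level. The highest SMA library exceeded the next by 14.03- to 77.3-fold, and held 88.0% to 98.4%. The SDs were accordingly as large as the means or larger, for example 229 ± 351 CPM for Ahsg in control and 429 ± 695 CPM in SMA spinal cord (SD, n = 3). In control brain, by contrast, Trf had 17.0 ± 1.52 CPM (SD, n = 3), the smallest relative spread of any gene and group here.

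Compared per length, as CPM per kilobase of the deposited gene length, the order of the genes was similar in both high spinal cord libraries. In SMA spinal cord library 1, Ahsg (561) and Trf (525) led, followed by Alb (282), Apoa2 (216), Apoa1 (104), Apob (65.4), Ttr (54.2), Rbp4 (53.0), Apoh (26.5) and Afp (21.5). In control spinal cord library 3 the values were 288 for Ahsg, 226 for Trf, 121 for Alb, 84.4 for Apoa2, 53.1 for Apoa1, 24.3 for Ttr, 21.1 for Apob, 19.8 for Rbp4, 7.73 for Apoh and 6.98 for Afp. Neighbours such as Ttr and Apob changed places between the libraries. The deposited length of Trf, 1212 bases, is shorter than the known coding sequence of transferrin, so its per-length level is set too high by this measure. The study's methods take gene length over the exons of all isoforms, which can include untranslated parts. How much of each deposited length is coding was not examined. The order of the other genes therefore also depends on these lengths.

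Counts relative to Apob showed how far the genes kept their proportions in the 5 libraries with over 50 Apob counts. Alb was 0.724 times Apob in SMA spinal cord library 1 (exact 95% binomial interval 0.699 to 0.750), 0.962 in control spinal cord library 3 (0.915 to 1.01) and 1.36 in SMA brain library 1 (1.07 to 1.73). Ahsg ranged from 1.35 (1.31 to 1.39) in SMA spinal cord library 1 to 3.82 (2.94 to 5.02) in SMA spinal cord library 3. The intervals of these libraries did not overlap, so that the proportions differed between libraries by more than counting error. Ttr departed most: it was 0.992 times Apob (0.766 to 1.28) in SMA brain library 1, but 0.0706 (0.0645 to 0.0772) in SMA spinal cord library 1 and 0.0981 (0.0869 to 0.110) in control spinal cord library 3. Rbp4 was 0.0732 times Apob (0.0327 to 0.143) in SMA brain library 1, and 0.0782 and 0.0904 in the same spinal cord libraries, but 0.257 (0.196 to 0.334) in control spinal cord library 1 and 0.431 (0.273 to 0.665) in SMA spinal cord library 3.

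**Figure D2:**
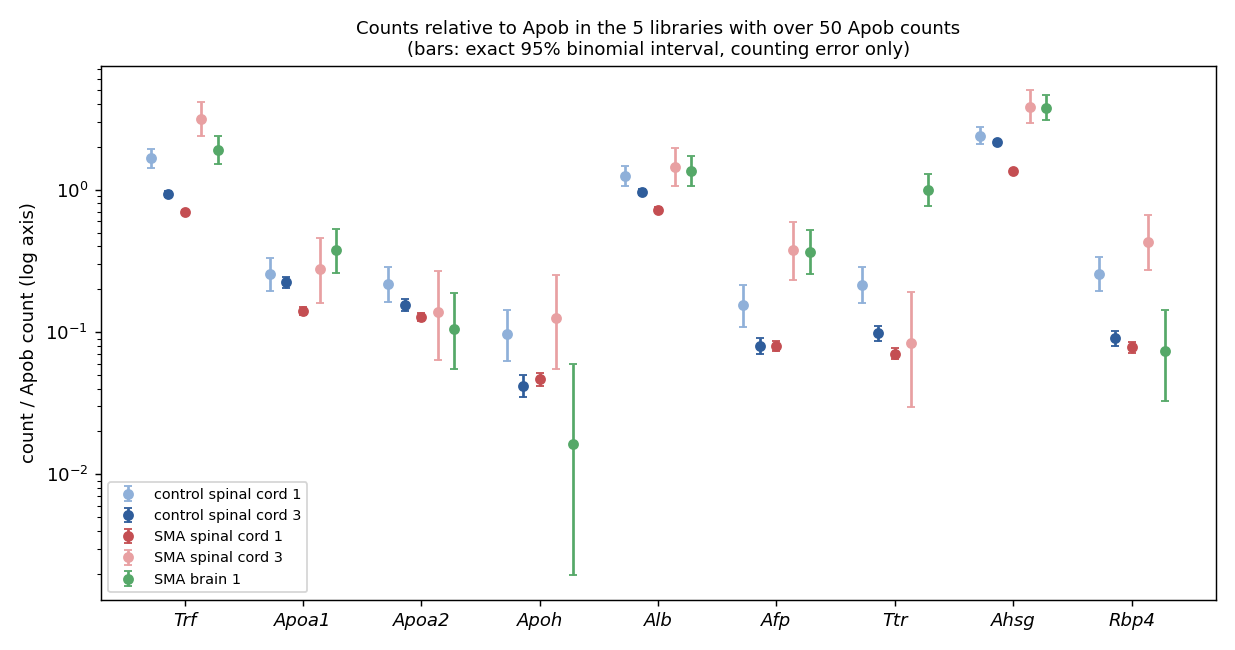
Count of each gene divided by the count of Apob in the same library (vertical log axis) for the 5 libraries with over 50 Apob counts, with exact 95% binomial intervals that cover counting error only. Ttr in SMA brain library 1, at 0.992, lies above its ratio in the 4 spinal cord libraries (0.0706 to 0.214).

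The comparison of SMA with control asked how footprint levels differed between genotypes in each tissue. In brain, 8 of the 10 genes had enough counts for a fold, 7 of these were higher in SMA and Rbp4 was lower. Of all 10, 7 passed the study's thresholds (mean CPM of at least 0.05, absolute log2 fold change of at least 0.5, unadjusted p under 0.05), against 1.53% of all genes in either direction and 0.534% in this direction. The log2 fold changes were 1.21 ± 0.30 (SE, n = 3 against 3 for this and the following values) for Trf, 2.65 ± 1.07 for Apob, 2.19 ± 0.88 for Apoa1, 4.35 ± 1.37 for Alb, 4.32 ± 1.66 for Afp and 4.85 ± 1.51 for Ahsg, and Apoa2 also passed, on a fit against a group at 0. Ttr (1.58 ± 1.07), Apoh and Rbp4 (-0.32 ± 0.60) did not. The median over the 8 genes was 2.42, against 0.0022 over all genes. After Benjamini-Hochberg adjustment over all genes, no member was below 0.05 with edgeR (7 at unadjusted p) or with DESeq2 (2 at unadjusted p). DESeq2 gave an adjusted p for only 6 of the 10.

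Most of these values rested on SMA brain library 1. Without it, Apob (-1.16 ± 0.72), Alb (-0.34 ± 0.91) and Ahsg (-1.37 ± 1.02) were lower in SMA, and the median over the 7 genes with enough counts left was -0.64, with 2 genes higher and 5 lower. Apoa1 was then at 0.03 ± 0.72. Trf was at 0.67 ± 0.18, still past the thresholds and still without overlap between the genotypes. Ttr passed in the other direction, at -2.65 ± 1.13, where control brain library 1 held 69 of the 75 control counts. Trf was the single gene of the 10 whose brain groups did not overlap with all libraries included, while 4.16% of genes had SMA brain libraries entirely above the controls and 7.43% entirely below.

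In spinal cord all 10 genes had a higher fitted level in SMA, with log2 fold changes from 0.90 ± 1.61 (Apoa1) to 1.66 ± 1.66 (Apoh) and a median of 1.18, against -0.0054 over all genes. None passed the thresholds with edgeR, against 0.983% of all genes (0.343% higher and 0.639% lower in SMA), and none had an unadjusted p under 0.05. DESeq2 counted 0 as well, but it gave an adjusted p for 0 of the 10. Its 0 is therefore not a second negative result for these genes. No gene of the 10 had spinal cord groups that did not overlap, while 8.4% of genes lay entirely higher and 6.33% entirely lower in SMA. The direction changed with the library left out. Without SMA library 1 all 10 were lower in SMA, with a median of -2.99, and Ttr passed the thresholds (-3.83 ± 1.56). Without control library 3 all 10 were higher, with a median of 3.76, and none passed. Without both, 4 were higher and 6 lower, with a median of -0.13, and Trf stood at -0.01 ± 0.32.

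**Figure D3:**
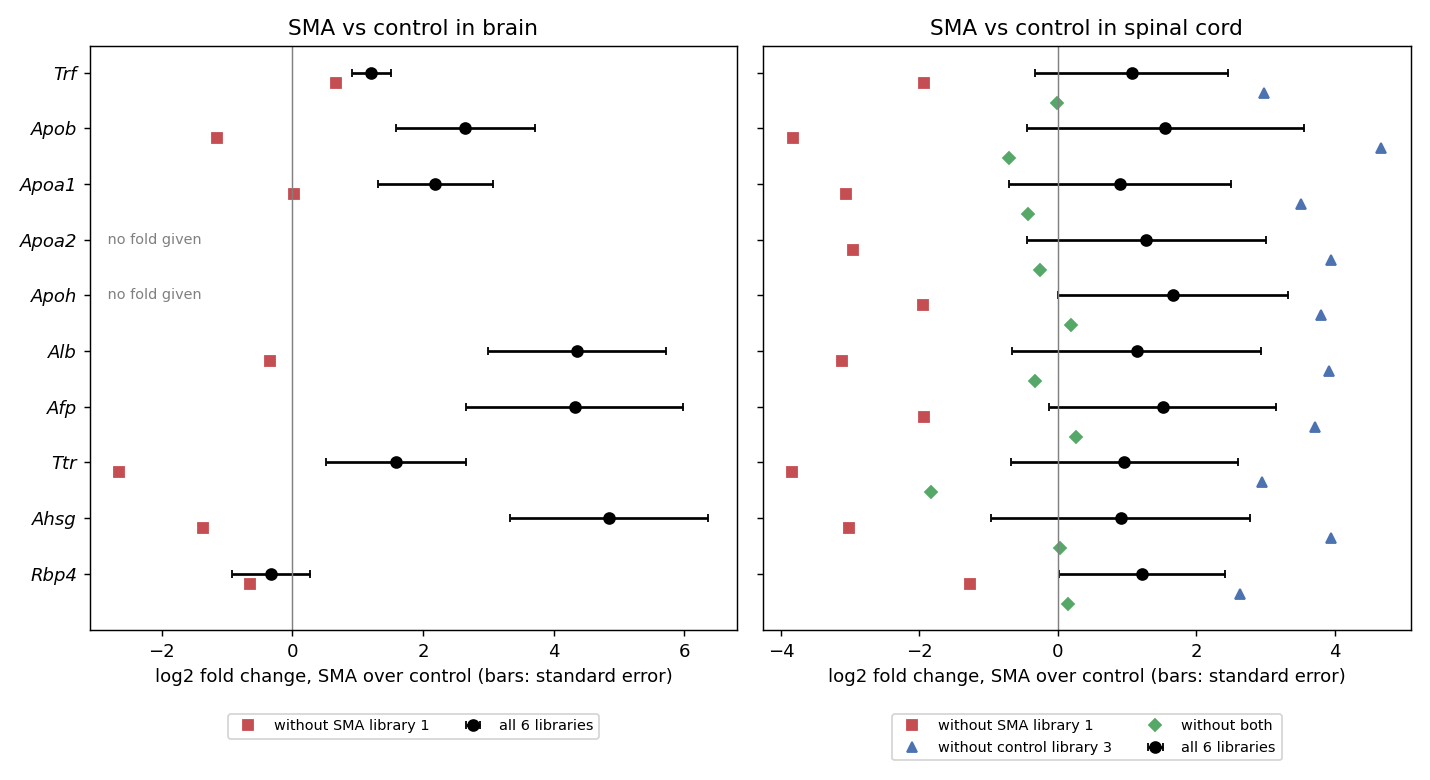
Log2 fold change of SMA over control for each gene (horizontal axis) in brain and spinal cord, with all 6 libraries (black, bars are standard errors) and with the high libraries left out (coloured). In spinal cord the values lie on opposite sides of 0 without SMA library 1 (median -2.99) and without control library 3 (median 3.76); in brain, Apoa2 and Apoh have too few counts for a fold.

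The change with genotype was compared between the tissues by an interaction term, which was below an adjusted p of 0.05 for 0 of the 10 genes and for 0% of all genes with edgeR. None of the 10 was below 0.05 unadjusted with edgeR. DESeq2 gave 0 as well, with an adjusted p for only 7 of the 10.

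Between tissues, all 10 genes were lower in brain than in spinal cord in both genotypes. In controls the log2 differences (brain minus spinal cord) ranged from -1.72 ± 1.75 for Ttr to -7.31 ± 2.77 for Ahsg among the genes with counts in both tissues, and Apoa2 was at least 94.7-fold lower in brain. The median of these 9 was -5.21. The Apoa2 counts lay mostly in control spinal cord library 3 (478 of 543), and without it the bound was 16.4-fold. None passed an adjusted p of 0.05 with an absolute log2 difference of 0.5 with edgeR, against 27.7% of all genes, while 6 had an unadjusted p under 0.05. With DESeq2, which gave an adjusted p for 7 of the 10, 4 passed. Trf, Apob, Apoa1, Apoa2, Alb and Ahsg had every control brain library below every control spinal cord library, as did 27.1% of genes, with 28.4% of genes the other way. Without control spinal cord library 3 the median of the 9 was -2.73, none passed, and Ttr stood at 0.27 ± 1.92.

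In SMA embryos the differences ranged from -1.01 ± 1.65 for Ttr to -5.88 ± 2.05 for Apoh, with a median of -3.68. Apoh and Rbp4 (-3.96 ± 1.26) passed, against 27.6% of all genes, and the same pair had brain libraries entirely below the spinal cord libraries, as did 26.8% of genes. Over the pooled libraries Apoh was 77.6-fold lower in brain (exact 95% interval 26.4 to 378, counting error only, 3 against 357 counts). Of the 357 counts, 343 were in SMA spinal cord library 1, and without it the ratio was 5.24 (1.46 to 28.4). Without SMA spinal cord library 1, the median was 0.47 with 7 genes higher in brain, and none passed. Without SMA brain library 1, the median over the 8 genes with enough counts was -6.16 and none passed. Without both of these and control spinal cord library 3, all 8 were lower in brain with a median of -2.51, and Alb (-4.39 ± 1.25) and Ahsg (-5.64 ± 1.58) passed in place of Apoh and Rbp4. These tissue comparisons use the same libraries as the comparisons of genotype. The study had removed genes of low value by condition before deposit, and all 10 genes remained, including Apoa2 with 0 counts in control brain.

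Other secreted proteins of liver and yolk sac could be followed in part, because only 9 of a list of 55 had a name at hand. In brain, 8 of the 9 were higher in SMA and 2 passed the thresholds, against 1.53% of all genes (0.534% higher), with a median log2 fold change of 1.55. Apoc2 and Igfbp1, which had no counts in control brain, enter this count and median with fitted values that are no bound. The passing pair was Itih1 (2.89 ± 1.06) and Itih3 (2.45 ± 1.06), heavy chains of the inter-alpha-trypsin inhibitor of plasma, each with an adjusted p of 0.90 by edgeR's quasi-likelihood test with Benjamini-Hochberg adjustment. Both rest on few counts. Itih1 had 6, 4 and 2 counts in SMA brain and 2, 0 and 0 in control brain. Itih3 had 18, 2 and 4 against 0, 4 and 2, with most of its SMA counts in library 1. In spinal cord all 9 were higher with a median of 0.59, and none passed with edgeR. All 9 were highest there in SMA library 1, and among the controls in library 3. SMA libraries 2 and 3 lay below control library 3 for each of the 9. Serpinf1, for example, had 8.42, 7.03 and 12.4 CPM in control and 24.7, 3.50 and 5.73 CPM in SMA spinal cord. The direction of the 9 without SMA library 1 was not tested. Itih4, another such chain, had 7.82, 0.469 and 53.8 CPM in control and 144, 4.27 and 2.46 CPM in SMA spinal cord, highest in the same libraries as Ahsg. Apoe, which glia make in the CNS, and Vtn, a plasma and vessel wall protein also made by pericytes, varied less. Apoe ranged from 328 to 679 CPM in control and from 469 to 929 CPM in SMA spinal cord, again highest in libraries 3 and 1. Between tissues, all 9 were lower in brain in both genotypes, and 4 of them passed in each, namely Apoe, Serpinf1, Vtn and Cp, against 14.2% of all genes lower in control brain and 15.7% lower in SMA brain. Vtn ranged from 158 to 200 CPM over all 6 spinal cord libraries and from 30.3 to 45.1 CPM over the 6 brain libraries.

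Of 21 receptors and handlers of these proteins and their cargo, 3 had a name at hand. Abca1, which loads lipid onto Apoa1, had 36.1 to 43.1 CPM over the 6 brain libraries and 48.2 to 77.1 CPM over the 6 spinal cord libraries. Pltp, the phospholipid transfer protein, had 34.9 to 53.7 CPM and 97.7 to 129 CPM. Crabp2, which binds retinoic acid, had 10.9 to 22.4 CPM and 17.5 to 34.5 CPM. None of the 3 passed the thresholds between genotypes, with log2 fold changes from -0.41 to 0.05 in brain and from -0.15 to 0.07 in spinal cord. Between tissues, all 3 passed as lower in SMA brain, against 15.7% of all genes. Abca1 and Pltp passed as lower in control brain, against 14.2% of all genes.

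Markers of other cell types were examined beside the 10 genes. Names were at hand for 8 of 16 hepatocyte and visceral endoderm genes, and 7 of these are among the 10 themselves. The remaining gene, the liver transcription factor Hnf4a, had 3.04, 0.563 and 8.15 CPM in control and 29.9, 0.777 and 0.655 CPM in SMA spinal cord, and at most 2.19 CPM in brain, in SMA library 1. Of 16 choroid plexus markers, 4 had a name, Ttr among them. Aqp1 was at most 2.08 CPM except for 7.77 CPM in SMA spinal cord library 1, and Enpp2 was 26.5 to 44.0 CPM in brain and 121 to 140 CPM in spinal cord. Otx2, a factor of choroid plexus and midbrain, was 87.4 to 134 CPM in brain and 0.948 to 41.1 CPM in spinal cord, where it was highest in control library 1. The summed level of these 3 ranged from 114 to 174 CPM over the 12 libraries. This sum adds Otx2, higher in brain, to Enpp2, higher in spinal cord, and hardly reflects the low Aqp1. Of 14 red cell markers 1 had a name, Slc4a1, which was 10.7 CPM in SMA spinal cord library 1 and 1.04 to 3.83 CPM in all other libraries, and passed the thresholds as higher in SMA spinal cord (2.08 ± 0.57). Col1a1, 1 of 11 markers of meninges and mesenchyme, was highest in control spinal cord library 2 (53.4 CPM) and passed as lower in SMA brain (-0.95 ± 0.35). Esam, 1 of 8 endothelial markers, ranged from 12.1 to 31.4 CPM. The 5 named genes of 14 for neurons and neural progenitors summed to between 3183 and 4744 CPM, and none passed between genotypes. The neuronal gene Map2 had 2895 and 2689 CPM in the high spinal cord libraries, within the 2384 to 3147 CPM of that tissue. The part that cells or material of other tissues had in the levels of the 10 genes was not tested.

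**Figure D4:**
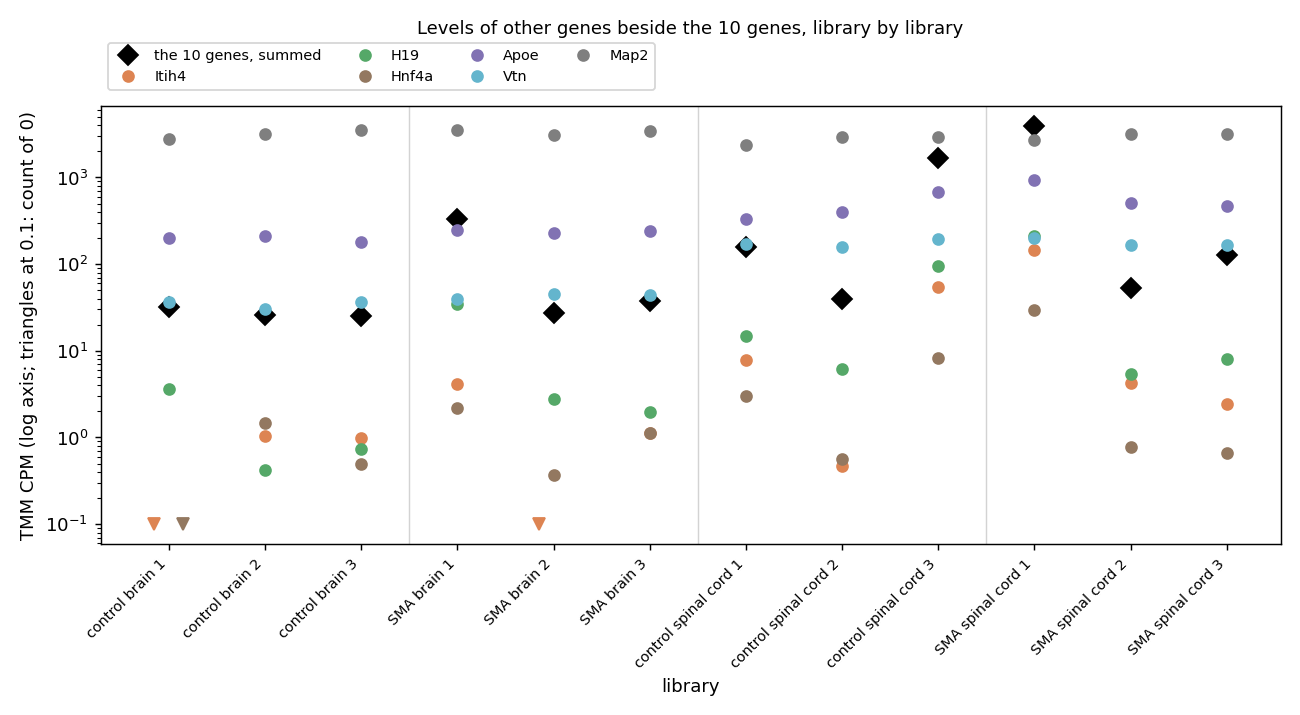
Levels of 6 other genes and the summed level of the 10 genes (black diamonds) in each library, as TMM CPM on a log axis, with triangles for a count of 0. The sum was 3933 in SMA spinal cord library 1, 1686 in control spinal cord library 3 and 335 in SMA brain library 1, and Itih4, H19 and Hnf4a were highest of their group in the same libraries, while Map2 stayed between 2384 and 3564.

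The 10 genes varied together: over the 12 libraries, with group means removed, Pearson's r of log2 CPM over the 45 pairs ranged from 0.66 to 0.97 with a median of 0.92. This is a description, because all pairs share the same libraries and their depth, and the genes were chosen with results of these libraries known. The correlations were not computed without the high libraries or for other sets of genes. Among 1921 genes that had a name at hand and averaged 20 counts or more, those whose log2 CPM over the 12 libraries was most like the mean of the 10 were H19 (r = 0.95), Itih3 (0.94), Itih4 (0.94), Akr1c6 (0.93) and Pafah1b1 (0.91). Among all 9771 genes compared, named or not, they ranked 21, 28, 31, 34 and 42, so genes without a name were more alike. H19, an imprinted long noncoding RNA abundant in fetal liver and mesoderm, had 14.8, 6.19 and 94.5 CPM in control spinal cord, 209, 5.44 and 8.02 CPM in SMA spinal cord, 3.61, 0.420 and 0.732 CPM in control brain and 35.0, 2.78 and 1.95 CPM in SMA brain. Akr1c6, a liver enzyme of steroid metabolism, had at most 0.547 CPM in brain, and 6.25 CPM in control library 3 and 27.6 CPM in SMA library 1 of spinal cord. Pafah1b1, a regulator of dynein in neurons, differed from these in size, with 308 to 384 CPM over all 12 libraries.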

How the data were processed

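Ribosome profiling was done by the authors on brain and spinal cord of E14.5 embryos. Per the study's methods, reads were trimmed (cutadapt 4.1 in the submitters' processing notes), cleared of rRNA and tRNA, and aligned with STAR 2.5.3a to the mouse genome (GRCm38.p6), keeping reads with several alignments, so that related genes may share reads. The authors deposited raw footprint counts per gene, without normalization, and a gene length. The counting tool, and whether reads at the same position had been removed before counting, are not given in the sources used here. Total counts were 3683842 to 12793955 per library. All 12 columns were matched to samples by their labels, and 0 columns were left unused. Libraries of a group differed by more than sampling noise (chi-square per gene 3.85 to 23.1). Nothing in the labels states separate litters, so p-values measure the spread between these libraries.

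Counts were scaled with TMM and tested over all 10481 genes with the quasi-likelihood test of edgeR 4.0.16 (R 4.3.3, limma 3.58.1), within each tissue for genotype, and over all 12 libraries for tissue and the interaction, after the scripts were tested on simulated data. Calls between genotypes required a mean CPM of 0.05, an absolute log2 fold change of 0.5 and an unadjusted p of 0.05, as in the study's methods. Calls between tissues required a Benjamini-Hochberg adjusted p of 0.05 and the same fold, and interaction calls the adjusted p only. DESeq2 1.42.0, other scalings and filters, a block and left-out libraries were alternatives. A group at 0 was bounded with 3 counts over the group. Where a group was at 0, or no compared group had more than 3 counts, no fold change is given and the gene is left out of the medians and directions of the 10; counts of calls cover all 10 genes. Ratios of counts have exact binomial intervals and shares Wilson intervals, at 95%.

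The 10 genes, the gene lists and the motifs were chosen with earlier results of these data known. Genes were named by this rule: every one of the 10, list members a result turns on, and the 5 named genes most correlated with the mean of the 10. Symbols came from the 10 genes' definition and from a supplementary table held only in its first 1999 rows, which run roughly by gene identifier, so most genes have no name here. That table's fold changes and p-values were not used. Between SMA brain and SMA spinal cord, deviations of same-numbered libraries correlated at r = 0.35, 0.11 and 0.15. Between control brain and control spinal cord they correlated at 0.11, 0.01 and 0.13. The labels state no pairing, and these correlations do not settle whether libraries were paired. Values in the report are from the fit without the block. For the SMA tissues, the blocked fit called the same pair, Apoh and Rbp4.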

Additional observations from a re-analysis of the deposited data

How the results depend on the processing

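Counts of the 10 genes past the thresholds depended on the fit. For SMA against control in brain (7 in the report), the count was 2 with DESeq2, 1 with genes kept by filterByExpr (where only 2 of the 10 were tested), 2 with robust estimation and 0 in 1 fit over all 12 libraries. The shares of all genes passing in these fits were 0.868%, 1.36%, 1.45% and 1.1%. Leaving out single libraries gave 2 to 8, with 2 without SMA library 1, 3 without control library 3 and 4 without control library 1. In the last 3 fits 1.61%, 1.73% and 1.83% of all genes passed. For control brain against control spinal cord (0 in the report), it was 4 with DESeq2, 1 with plain library sizes, 1 with upper-quartile factors, 2 with filterByExpr and 7 in the 6 control libraries alone, and 0 to 4 without single libraries, with 4 without control spinal cord library 2. For SMA brain against SMA spinal cord (2 in the report), it was 0 with robust estimation and 0 to 4 without single libraries: 0 without any 1 of the brain libraries or without spinal cord library 1, and 4 without spinal cord library 2. The fits of the report called 27.7% of all genes between the control tissues and 27.6% between the SMA tissues. Nothing is read from these tissue counts. For SMA against control in spinal cord it was 0 to 1 without single libraries, and for the interaction 0 in every fit run. The cause of these differences was not tested.

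Leaving out the 3 libraries highest in these genes was chosen after seeing the data. It gave 2 in brain, 6 between the control tissues and 2 between the SMA tissues (Alb and Ahsg), and the log2 fold changes in brain reversed for Apob (-1.16), Alb (-0.34) and Ahsg (-1.37), as they did without SMA brain library 1 alone. Over all single libraries left out, these values ranged from -1.16 to 3.27 for Apob, from -0.34 to 4.98 for Alb and from -1.37 to 5.55 for Ahsg. With the replicate number as a block, 5 genes passed between the control tissues and 8 in SMA against control brain. That blocked brain fit called 1.67% of all genes. The same block left 2 between the SMA tissues and 0 in the spinal cord and the interaction. By the labels, same-numbered libraries share only a number in every comparison. Their correlations were -0.14, 0.02 and 0.00 between the brain genotypes, 0.23, 0.70 and -0.45 between the spinal cord genotypes, and 0.11, 0.01 and 0.13 between the control tissues. Of 6 libraries, 0, 3 and 4 correlated best with their own number in these comparisons, and 3 between the SMA tissues. Depth limits Apoh, Apoa2 and Afp in brain, which have at most 3 counts in a group of controls.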
